A study of Mus musculus with 8 samples.

Results

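A CD4+ T cell that leaves rest must first build the enzymes that copy its DNA and only later those that divide it. The 40 genes described here are 24 genes of DNA replication, from Mcm2 to Rrm2, and 16 genes of mitosis, from Ccna2 and Cdk1 to Cdc20, set beside each other to ask which of these programmes the cells expressed at 16 hours. They are the rows of the deposited table whose symbol equals a name on the list, and all 40 were found among its 27179 genes. RNA was sequenced from splenic CD4+ T cells of offspring aged 8 weeks of the strain C.Cg-Foxp3tm2Tch/J, which carries a green fluorescent reporter in Foxp3. The paper describes the sequenced cells of control offspring as CD4+CD25- conventional T cells. It also states that cells for sequencing were purified further by FACS sorting. The parents drank water with 10 ppm cadmium chloride (Cd) or unspiked water during mating, and the mothers stayed on it through gestation. From each kind of offspring, cells were lysed at once (unstimulated, 0 hours) or after 16 hours with anti-CD3/CD28 beads (stimulated), with 2 libraries a group, numbered 6 and 7. No cells cultured for 16 hours without beads were sequenced, so time in culture and stimulation cannot be told apart.

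The libraries held 15542732 to 25486791 reads on genes. Values are in RPKM, the reads of a gene per kilobase of transcript, scaled to the size of the library, so levels can be compared between genes. Where nothing else is said, a log2 fold change is of RPKM + 0.1 and its adjusted p comes from limma over 12605 genes with a mean of at least 0.5 RPKM. To be called, a change with stimulation had to exceed 2-fold with an adjusted p below 0.01, and a difference with Cd needed an adjusted p below 0.05. The labels do not say whether libraries come from separate animals, so p values measure the spread between these libraries, and in bulk RNA fewer cells with a transcript and less of it per cell cannot be told apart.

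The T cell label fitted its markers. Cd4 lay between 212 and 315 RPKM and Cd3e between 306 and 464 RPKM, and both were lower after stimulation. The B cell marker Ms4a1 and the myeloid markers Cd14 and S100a8 were listed at 0 in all libraries. Cd79a of B cells was present, with 2.87 to 3.38 RPKM in unstimulated and 4.15 to 4.73 RPKM in stimulated libraries (adjusted p = 0.0177 in control and 0.00408 in Cd offspring, less than 2-fold), and made up nearly all of the sum of the B cell markers, 3.12 to 3.76 and 4.19 to 4.89 RPKM. The CD8 marker Cd8b1 lay between 9.40 and 11.7 RPKM and Cd8a between 0.0581 and 0.160 RPKM. The 5 myeloid markers summed to 1.87 to 2.03 RPKM in unstimulated and 0.380 to 0.582 RPKM in stimulated libraries, and the natural killer markers, nearly all Klrb1c, to 3.15 to 4.35 and 0.147 to 0.293 RPKM. Their part in the results was not tested. The 2 regulatory T cell markers, Foxp3 and Ikzf2, summed to 6.32 to 7.95 RPKM in unstimulated and 8.52 to 11.0 RPKM in stimulated libraries. Among activation genes, Il2ra encodes CD25, the high-affinity chain of the interleukin 2 receptor. It had 1.80 to 2.19 RPKM at 0 hours and 94.0 to 117 RPKM at 16 hours. Since the cells of control offspring are described as CD25-, its low level at 0 hours is not independent of how they were selected. Cd69, which that description does not name, had 106 to 156 RPKM at 0 hours and 306 to 326 RPKM at 16 hours. Myc, not named there either, had 32.2 to 41.1 and 187 to 198 RPKM.

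Before DNA is copied, origins are licensed in G1: Cdc6 and Cdt1 load the ring of Mcm2 to Mcm7 onto DNA. In S phase Cdc45 and the GINS complex, helped by Mcm10, turn each ring into a moving helicase, and polymerases, clamp, primase, flap nuclease and ligase follow at the fork. Cyclin A and cyclin B with Cdk1, the Aurora and Polo kinases, the spindle checkpoint and the spindle motors act later, in G2 and mitosis. In many cells E2F factors drive the first group of genes, and complexes that bind the CHR element and CCAAT boxes drive the second, which falls back after each division.

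The main difference between the lists was one of level. In unstimulated cells of control offspring the median replication gene had 8.26 and 8.58 RPKM in the 2 libraries, and the median mitosis gene 0.569 and 0.548 RPKM. In stimulated cells these medians were 19.7 and 18.6 RPKM for replication and 0.775 and 0.670 RPKM for mitosis. In Cd offspring they were 9.13 and 8.28 RPKM before and 18.8 and 18.7 RPKM after stimulation for replication, and 0.460 and 0.461 RPKM before and 0.579 and 0.727 RPKM after it for mitosis. Every stimulated library lay above every unstimulated library for both lists, and in every library the replication median was the higher.

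**Figure D1:**
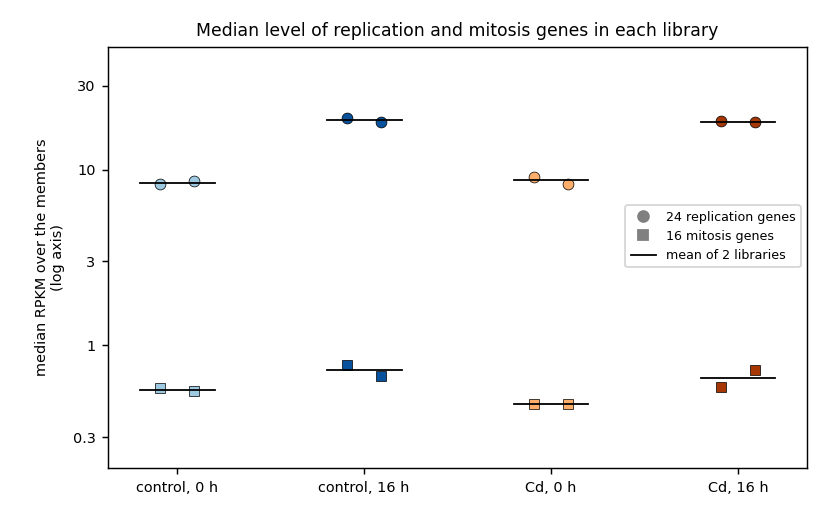
Median RPKM (log axis) over the 24 replication genes (circles) and the 16 mitosis genes (squares) in each of the 8 libraries, with a line at the mean of 2 libraries. The replication medians sit between 8.26 and 9.13 RPKM at 0 hours and between 18.6 and 19.7 RPKM at 16 hours, and the mitosis medians stay between 0.460 and 0.775 RPKM throughout.

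On the log2 scale, with 0.1 RPKM added, the median replication gene stood above the median mitosis gene by 3.68 and 3.77 in unstimulated and by 4.51 and 4.60 in stimulated control libraries. In Cd offspring the distance was 4.05 and 3.90 before and 4.80 and 4.52 after stimulation, so the distance was wider in the stimulated than in the unstimulated libraries of both kinds of offspring. Reads on the 24 replication genes made up 0.0790% and 0.0800% of a library in unstimulated and 0.193% and 0.171% in stimulated control cells. Reads on the 16 mitosis genes made up 0.00534% and 0.00491%, and 0.00932% and 0.00861%. After stimulation of control cells 20 of 24 replication genes had a mean of at least 5 RPKM, against 2 of 16 mitosis genes, Mad2l1 and Top2a.

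Of the 24 replication genes, 19 rose past both thresholds on stimulation in control offspring and 0 fell, against 11.5% of all genes tested that rose and 7.17% that fell. In Cd offspring 16 of 24 rose and 0 fell, with 11.4% and 7.24% over all genes tested. Of the 16 mitosis genes, 3 rose in control offspring, Bub1b, Cdc20 and Top2a, and these 3 also rose in Cd offspring. None fell in either, with Mki67 at an unadjusted p of 0.0185 and 0.0131. Since 7 mitosis genes (Ccna2, Ccnb1, Cdk1, Aurkb, Bub1, Birc5 and Cenpe) had a mean under 0.5 RPKM and were not tested, these counts are not over equal numbers of tested genes. Mcm10 and Kif11 passed the filter only through stimulated libraries, so their tests are no support for a rise. Mcm10 is counted among the 19 and the 16.

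Over all members of a list, tested or not, the median log2 fold change in control offspring was 1.34 for replication and 0.85 for mitosis, against 0.07 over all genes tested. In Cd offspring it was 1.22 and 0.46, against 0.05. How far the lists part in fold change depends on how low levels are handled. Limma voom on the recovered reads gave medians of 1.35 and 1.14 for control offspring, then 1.23 and 0.60 for Cd offspring, and an added 1 RPKM in place of 0.1 gave 1.17 and 0.28, and 1.08 and 0.17. As plain ratios of group means, with nothing added, the medians were 2.55 for replication and 2.26 for mitosis in control offspring, and 2.34 and 1.53 in Cd offspring. So in these libraries the lists stood apart in level under every scale used, while the distance between their fold changes depended on the scale. In control offspring it was small with voom and as plain ratios, and in Cd offspring the mitosis median was well below the replication median on each of these scales.

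**Figure D2:**
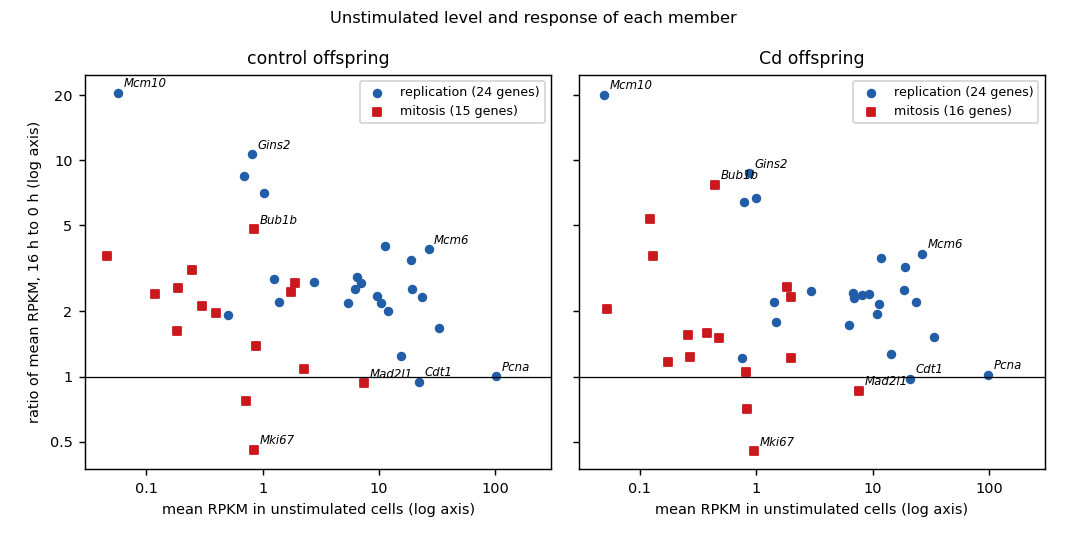
Mean RPKM in unstimulated cells (log axis) against the ratio of mean RPKM at 16 h to that at 0 h (log axis) for each member, in control (left) and Cd offspring (right). Aurkb, at 0 in unstimulated control cells, is not drawn on the left. The mitosis genes (squares) sit at the low end of the levels and span ratios that overlap those of the replication genes (circles), from Mki67 near 0.46 to Bub1b at 4.79 in control offspring, while Pcna and Cdt1 stand at high levels with ratios near 1.

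The lists overlapped gene by gene. In control offspring 3 of 16 mitosis genes, Aurkb, Bub1b and Top2a, had a larger log2 fold change than the median replication gene, and 5 of 24 replication genes, Mcm4, Cdc6, Cdt1, Pcna and Rpa2, a smaller one than the median mitosis gene. The libraries of stimulated and unstimulated control cells did not overlap, with the stimulated ones higher, for 23 of 24 replication and 12 of 16 mitosis genes, where 46% of all genes tested show this. The count takes no account of size, and the 23 include Pcna, with a ratio of means of 1.006. In Cd offspring the numbers were 22 of 24 and 10 of 16, where 44.7% of all genes tested show it.

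**Figure D3:**
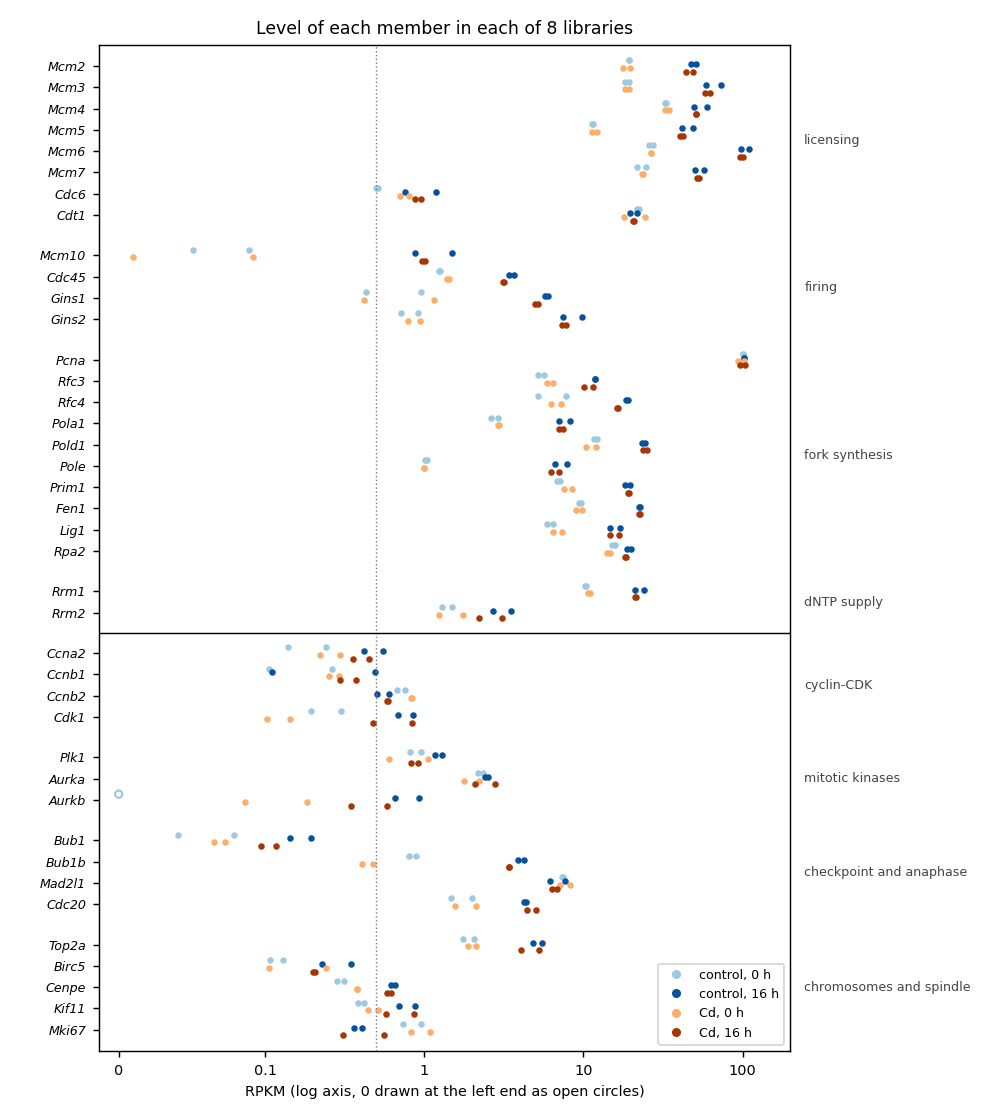
RPKM (log axis) of each of the 40 members in each of the 8 libraries, coloured by group and ordered by role, with replication genes above the line and mitosis genes below it. The dotted line marks a mean of 0.5 RPKM, under which genes were not tested. Mcm6 and Pcna lie near 100 RPKM in stimulated cells, 10 mitosis genes lie under 1 RPKM in both stimulated control libraries, and the open circle marks Aurkb with 0 reads in both unstimulated control libraries.

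The promoters of 5 members are shown because they carry the letters in which the lists differed. RefSeq (GRCm38.p6) windows of 300 bases, from 250 before to 50 after an annotated start, were at hand for 34 members, 20 of replication and 14 of mitosis, and for 27025 genes in all. Mcm4, Gins1, Gins2, Pole, Ccna2 and Aurkb had none. Both strands were searched for 4 spellings of the E2F motif (TTTCCCGC, TTTGGCGC, TTTCGCGC and TTTGCCGC), for the CHR motif TTTGAA and for CCAAT. A gene counted when any of its windows held a match. An E2F spelling was found in 10 of 20 replication and 1 of 14 mitosis genes, Cdk1, against 2.6% of all genes with a window. TTTGAA was found in 3 of 20 replication and 9 of 14 mitosis genes, against 20.2% of all. CCAAT was found in 14 of 20 and 12 of 14, against 41.1% of all, and TTTGAA and CCAAT together in 2 of 20 and 9 of 14, against 8.97%. Overlapping matches, such as a pair of E2F spellings on opposite strands in Mcm5 and Mcm6, were counted as they stood. A match is a description of these letters and not a binding site. Each stretch is given 5′ to 3′ on the strand of its gene, ends before the first annotated exon, lies outside annotated genes, and has E2F and CHR letters in capitals. They are chr8:75109259-75109467 (plus) for Mcm5, chr1:128359706-128359955 (minus) for Mcm6, chr10:69352939-69353162 (minus) for Cdk1, chr9:70421555-70421804 (minus) for Ccnb2 and chr4:118437353-118437593 (minus) for Cdc20.
Mcm5: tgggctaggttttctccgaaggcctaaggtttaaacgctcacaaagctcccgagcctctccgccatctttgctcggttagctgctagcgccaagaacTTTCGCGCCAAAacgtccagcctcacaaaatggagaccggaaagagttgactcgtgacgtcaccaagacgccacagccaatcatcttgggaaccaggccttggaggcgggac
Mcm6: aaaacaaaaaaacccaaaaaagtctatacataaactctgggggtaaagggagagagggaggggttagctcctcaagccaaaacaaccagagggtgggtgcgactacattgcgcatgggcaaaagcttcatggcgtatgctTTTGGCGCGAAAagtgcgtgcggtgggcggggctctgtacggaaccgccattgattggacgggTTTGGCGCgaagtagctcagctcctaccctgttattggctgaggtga
Cdk1: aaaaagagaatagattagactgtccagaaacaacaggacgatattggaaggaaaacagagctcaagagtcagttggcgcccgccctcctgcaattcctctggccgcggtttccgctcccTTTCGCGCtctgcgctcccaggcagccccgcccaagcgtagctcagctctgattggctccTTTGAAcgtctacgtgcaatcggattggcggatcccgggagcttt
Ccnb2: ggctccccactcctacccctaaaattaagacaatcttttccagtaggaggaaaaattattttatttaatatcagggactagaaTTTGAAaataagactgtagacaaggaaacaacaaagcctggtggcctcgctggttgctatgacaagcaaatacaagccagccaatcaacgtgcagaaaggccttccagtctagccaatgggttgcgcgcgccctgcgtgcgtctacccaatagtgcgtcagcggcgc
Cdc20: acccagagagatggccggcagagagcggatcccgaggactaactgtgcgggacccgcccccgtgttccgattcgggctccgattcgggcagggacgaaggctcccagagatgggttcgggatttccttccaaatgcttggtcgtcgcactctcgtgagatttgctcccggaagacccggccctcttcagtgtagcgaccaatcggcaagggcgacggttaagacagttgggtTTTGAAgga

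Distances are counted from the start of each RefSeq window, which for Mcm5 lies downstream of the first base of the gene span given here, so that the last base of its stretch is 42 bases before that start. In Mcm5 the 2 E2F spellings overlap, at 153 and 149 bases before the start. In Mcm6 a pair overlaps at 110 and 106 bases and another stands alone at 47 bases before the start. Cdk1 has an E2F spelling at 131 and a TTTGAA at 71 bases before the start, with another TTTGAA at 15 bases, beyond the stretch shown. Ccnb2 has a TTTGAA at 167 bases before the start and another from base 5 after it, beyond the stretch shown, and Cdc20 has one at 18 bases before the start.

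Among the 8 licensing genes, 5 of the 6 Mcm2 to Mcm7 subunits rose, and the loaders Cdc6 and Cdt1 were not called. Mcm5, on chromosome 8 from 75109468 to 75128439, had 11.4 and 11.3 RPKM in unstimulated and 48.9 and 41.9 RPKM in stimulated control cells. In Cd offspring it had 12.2 and 11.3, then 40.3 and 42.4 RPKM. All stimulated libraries lay far above all unstimulated ones. Its log2 fold change was 1.99 (SE 0.08, adjusted p = 1.11e-06) in control and 1.81 (SE 0.08, adjusted p = 1.73e-06) in Cd offspring, the largest of the licensing genes in control offspring. Mcm6 changed by almost as much, from 27.5 and 25.9 to 110.2 and 97.4 RPKM in control cells (log2 fold change 1.95, SE 0.07), and with 98.4 ± 3.69 RPKM (SD, n = 2) reached the highest level of the ring in stimulated cells of Cd offspring too. Mcm3 rose by 1.78, Mcm2 by 1.35 and Mcm7 by 1.21 on the log2 scale in control offspring.

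Mcm4 differed in that it started highest. It had 32.4 and 33.1 RPKM in unstimulated and 59.9 and 49.6 RPKM in stimulated control cells, and its log2 fold change of 0.73 (SE 0.08, adjusted p = 0.000162) stayed under 2-fold, as it did in Cd offspring at 0.60. Per length, the highest and the lowest of the 6 subunits, Mcm4 and Mcm5, stood 2.84 and 2.94 times apart in the unstimulated control libraries. In the stimulated ones Mcm6 and Mcm5 stood 2.25 and 2.32 times apart, and the ratios in Cd offspring were 2.68 and 3.04 before and 2.38 and 2.38 after stimulation. The ring subunits together summed to 132 and 133 RPKM in unstimulated and 400.1 and 346 RPKM in stimulated control cells, so the sum was higher and the levels of the subunits closer to each other after stimulation.

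Cdt1, on chromosome 8 from 122568015 to 122573130, the loader that geminin holds in check, stayed level. It had 22.3 and 21.6 RPKM in unstimulated and 19.7 and 21.7 RPKM in stimulated control cells, and 24.3, 17.9, 20.6 and 20.7 RPKM in the libraries of Cd offspring. The groups overlapped, and its log2 fold change was -0.08 (SE 0.13, 95% interval -0.39 to 0.22) in control and -0.01 (SE 0.13, 95% interval -0.32 to 0.29) in Cd offspring. Cdc6, which works beside it, was low, with 0.497 and 0.509 RPKM before and 1.18 and 0.755 RPKM after stimulation of control cells. Its log2 fold change of 0.79 (SE 0.25, adjusted p = 0.0258) did not pass the threshold, nor did that of 0.26 in Cd offspring.

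The 4 firing genes had a median log2 fold change of 2.996 in control offspring, the largest of the 8 roles. This median lies between Gins1 and Mcm10, which both had few reads in unstimulated cells, so the rank is a description only. All 4 were called in both kinds of offspring. Of these, Mcm10 passed the filter only through stimulated libraries, so its calls are no support for a rise. With a filter at a mean of 1 RPKM its calls were lost in both kinds of offspring. Gins2, on chromosome 8 from 120581266 to 120589075, a subunit of the GINS complex of the active helicase, had 0.911 and 0.709 RPKM in unstimulated and 9.86 and 7.48 RPKM in stimulated control cells. In Cd offspring it had 0.794 and 0.938, then 7.76 and 7.30 RPKM. The groups were well apart, with a log2 fold change of 3.26 (SE 0.18, adjusted p = 3.79e-06) in control and 2.98 (SE 0.18, adjusted p = 6.04e-06) in Cd offspring. Gins1, of the same complex, followed with 2.997 and 2.68, though its unstimulated level rested on few reads, 9 and 18 for control and 26 and 10 for Cd offspring. Mcm10 went from 5 and 2 reads to 81 and 59 reads in control cells, or from 0.0573 ± 0.0314 to 1.18 ± 0.441 RPKM (SD, n = 2). Its log2 fold change was 2.99 in control and 2.91 in Cd offspring, and the call in Cd offspring was lost with 1 RPKM added, at 0.92.

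Cdc45, on chromosome 16 from 18780447 to 18811972, the other partner of the helicase, had the smallest change of the firing genes. It had 1.25 and 1.26 RPKM in unstimulated and 3.66 and 3.41 RPKM in stimulated control cells, with a log2 fold change of 1.43 (SE 0.12, adjusted p = 3.62e-05). In Cd offspring it went from 1.39 and 1.43 to 3.16 and 3.11 RPKM, a log2 fold change of 1.10 (SE 0.12). That call was lost with 0.5 or 1 RPKM added in place of 0.1, at 0.93 and 0.78.

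Of the 10 fork genes, 8 rose in control and 7 in Cd offspring. Pole, on chromosome 5 from 110286319 to 110337468, the catalytic subunit of the leading-strand polymerase, changed most. It had 1.05 and 1.007 RPKM in unstimulated and 7.83 and 6.59 RPKM in stimulated control cells, and in Cd offspring 0.990 and 0.997, then 6.27 and 6.99 RPKM. The libraries of a group lay close together and the groups far apart, with a log2 fold change of 2.69 (SE 0.13, adjusted p = 2.19e-06) and 2.62 (SE 0.13, adjusted p = 2.63e-06). Pold1, the catalytic subunit of the lagging-strand polymerase, only just passed 2-fold in control offspring, at 1.001 (SE 0.08). It lost the call under median-of-ratios scaling at 0.92, under quantile normalization at 0.88, and with 1 or 0.5 RPKM added at 0.95 and 0.98. Without the unstimulated or the stimulated control replicate 6 its log2 fold change was 0.97 each. In Cd offspring the call of Pold1 was lost under quantile normalization, at 0.99. Pola1 and Prim1, of the primase complex that starts each strand, rose by 1.42 and 1.43, the flap nuclease Fen1 by 1.23, and the ligase Lig1 by 1.33 on the log2 scale in control offspring.

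Pcna, on chromosome 2 from 132249286 to 132253180, the sliding clamp, was the most abundant member in unstimulated cells and was not called. It had 101 and 101 RPKM in unstimulated and 102 and 102 RPKM in stimulated control cells, and 102, 93.6, 96.2 and 103 RPKM in the libraries of Cd offspring. Its log2 fold change was 0.01 (SE 0.06, 95% interval -0.12 to 0.14) in control and 0.03 (SE 0.06) in Cd offspring, and it fell slightly below 0 under median-of-ratios scaling and quantile normalization, at -0.07 and -0.05 in control offspring. The clamp loaders Rfc3 and Rfc4 rose by 1.12 and 1.54 in control offspring, while Rfc3 stayed under 2-fold in Cd offspring at 0.78 (adjusted p = 0.000232). Rpa2, of the single-strand binding protein RPA, rose by 0.32 (SE 0.06, adjusted p = 0.00189), well under 2-fold. How reads that align to several places were counted is not given in the sources used here, and the RefSeq table holds pseudogene copies of Pcna, Ccnb1 and Ccnb2, none of which has a row of its own in the deposited table.

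Ribonucleotide reductase, which makes the building blocks of DNA, consists of a large subunit, Rrm1, and a small one, Rrm2. Rrm1, on chromosome 7 from 102441695 to 102469771, had 10.3 and 10.4 RPKM in unstimulated and 23.98 and 21.3 RPKM in stimulated control cells, and 10.8, 11.0, 21.1 and 21.4 RPKM in Cd offspring. The log2 fold change was 1.12 (SE 0.07, adjusted p = 6.61e-06) in control and 0.96 (SE 0.07, adjusted p = 1.51e-05) in Cd offspring, just over and just under 2-fold. The call in control offspring was lost under quantile normalization, at 0.997. Rrm2, on chromosome 12 from 24708254 to 24714146, was lower, with 1.30 and 1.49 RPKM before and 3.48 and 2.69 RPKM after stimulation of control cells. The libraries of Cd offspring had 1.75 and 1.23, then 2.21 and 3.10 RPKM, and the groups did not overlap. Its call in control offspring, at 1.08 (SE 0.24, adjusted p = 0.00492), was lost with 1 or 0.5 RPKM added, at 0.76 and 0.91. It was also lost under quantile normalization at 0.9998, without a filter (adjusted p = 0.0111) and with a replicate block within exposure (adjusted p = 0.0155). Without the unstimulated control replicate 6 or 7 the log2 fold change of Rrm2 was 0.99 and 1.17, and without the stimulated control replicate 6 it was 0.90. In Cd offspring its log2 fold change was 0.79 (adjusted p = 0.0197).

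**Figure D4:**
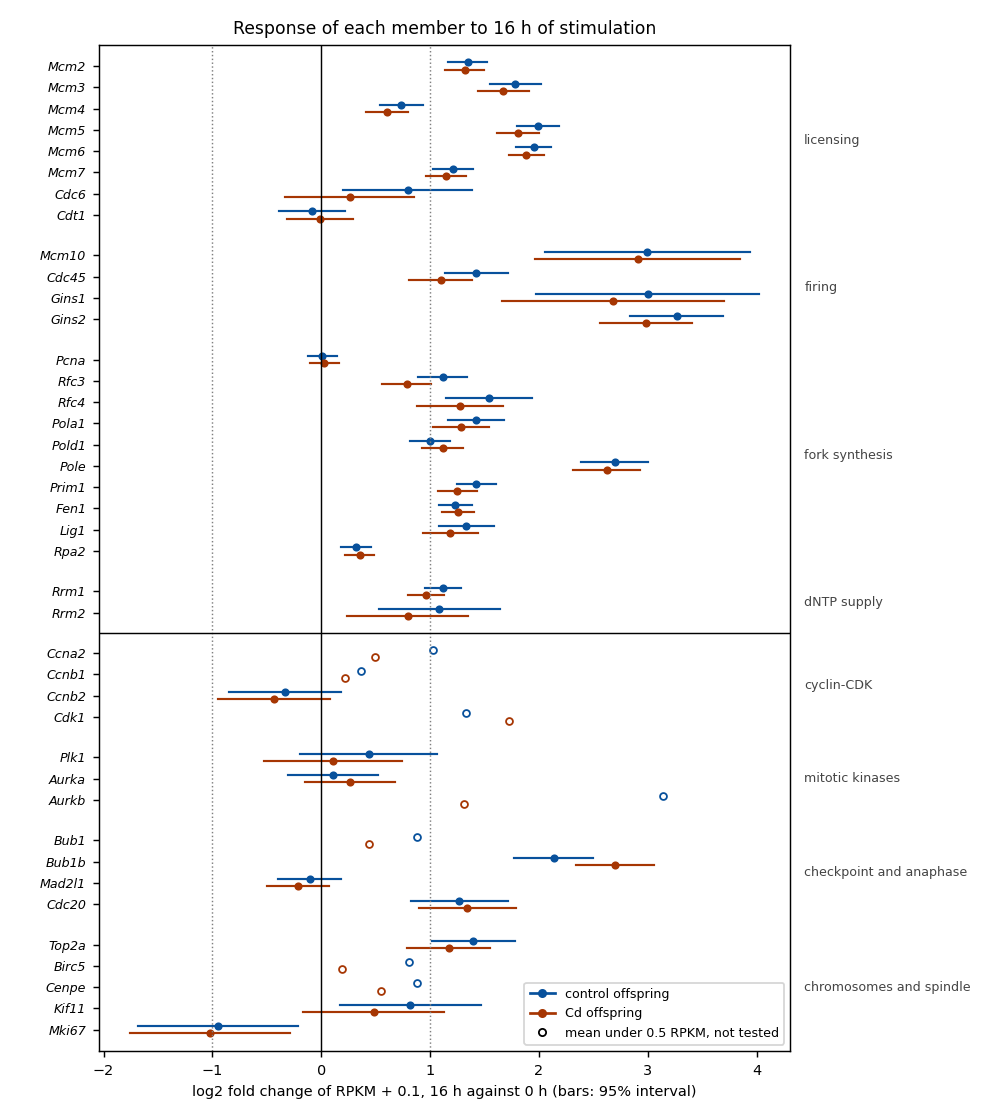
Log2 fold change of RPKM + 0.1 at 16 h against 0 h for each member in control (blue) and Cd offspring (brown), with 95% intervals for tested members and open circles without an interval for those under 0.5 RPKM. Dotted lines mark 2-fold. Among the replication genes Gins2, Gins1, Mcm10 and Pole lie furthest to the right, Bub1b lies at 2.13 and 2.70, Pcna and Cdt1 lie near 0, and Mki67 is the member with the lowest value, -0.94 and -1.02. The open circle of Aurkb in control offspring is set against 0 reads and depends on the amount added.

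Among the mitosis genes, the cyclins and Cdk1 remained under 1 RPKM. Cdk1, on chromosome 10 from 69335146 to 69352912, the kinase that drives mitosis, had 0.194 and 0.3003 RPKM (10 and 14 reads) in unstimulated and 0.855 and 0.683 RPKM (38 and 38 reads) in stimulated control cells. The libraries of Cd offspring had 0.144 and 0.102 RPKM (8 and 6 reads), then 0.477 and 0.837 RPKM (30 and 61 reads). The groups did not overlap in either, and the ratio of means was 3.11 in control and 5.34 in Cd offspring. Cdk1 was under the filter. Without a filter, where 8.45% and 8.32% of all genes rose, it passed in Cd offspring (log2 fold change 1.73, adjusted p = 0.00401) and not in control offspring (1.33, adjusted p = 0.0126).

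Its partners did less. Ccnb2, on chromosome 9 from 70407689 to 70421554, one of the B cyclins, had 0.758 and 0.677 RPKM in unstimulated and 0.501 and 0.601 RPKM in stimulated control cells, and 0.835, 0.821, 0.590 and 0.586 RPKM in Cd offspring. The stimulated libraries were the lower ones in both, but the log2 fold changes of -0.33 (SE 0.22, adjusted p = 0.221) and -0.43 (SE 0.22, adjusted p = 0.119) did not pass. Ccnb1 rested on 4 to 22 reads a library and overlapped between the control groups. Ccna2, which acts in S phase and G2, went from 0.189 ± 0.0719 to 0.485 ± 0.0910 RPKM (SD, n = 2) in control cells and from 0.257 ± 0.0528 to 0.401 ± 0.0641 RPKM in Cd offspring, and it did not pass without the filter (adjusted p = 0.0203 and 0.198).

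Of the 3 mitotic kinases, Aurka and Plk1 were tested and neither was called. Aurka, on chromosome 2 from 172356190 to 172370886, which acts at the spindle poles, had 2.19 and 2.35 RPKM in unstimulated and 2.50 and 2.40 RPKM in stimulated control cells, and 2.22, 1.79, 2.08 and 2.78 RPKM in Cd offspring. The log2 fold change was 0.11 (SE 0.18, 95% interval -0.31 to 0.52) and 0.26 (SE 0.18). Aurkb, on chromosome 11 from 69045624 to 69051664, which corrects the attachment of chromosomes to the spindle, had 0 reads in both unstimulated control libraries and 28 and 25 reads in the stimulated ones. Against a floor of 3 reads per library it was at least 8.80-fold higher in stimulated control cells. The reads of Cd offspring went from 7 and 3 reads to 15 and 29 reads. Without a filter it passed in control offspring (adjusted p = 0.000284) and not in Cd offspring (adjusted p = 0.0161). With Aurkb set at its bound, the median log2 fold change of the mitosis genes in control offspring was again 0.85.

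The spindle checkpoint and anaphase genes held the clearest rises among the mitosis genes. Bub1b, on chromosome 2 from 118598202 to 118641592, which encodes the checkpoint protein BubR1, had 0.803 and 0.886 RPKM in unstimulated and 4.21 and 3.88 RPKM in stimulated control cells. The libraries of Cd offspring had 0.407 and 0.478, then 3.41 and 3.41 RPKM. Its log2 fold change was 2.13 (SE 0.15, adjusted p = 1.42e-05) in control and 2.70 (SE 0.15, adjusted p = 4.66e-06) in Cd offspring. Cdc20, on chromosome 4 from 118432901 to 118437343, the activator of the anaphase-promoting complex, rose from 1.99 and 1.48 to 4.33 and 4.24 RPKM in control cells and from 2.11 and 1.56 to 5.05 and 4.44 RPKM in Cd offspring. The log2 fold change was 1.27 (SE 0.19, adjusted p = 0.000683) and 1.34 (SE 0.19, adjusted p = 0.000522), and the call in control offspring was lost with 1 RPKM added, at 0.96.

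Mad2l1, on chromosome 6 from 66535221 to 66541107, the checkpoint protein Mad2, was the most abundant mitosis gene and did not pass in either direction. It had 7.48 and 7.33 RPKM in unstimulated and 7.65 and 6.17 RPKM in stimulated control cells, and 8.24, 7.11, 6.33 and 6.87 RPKM in Cd offspring. Its log2 fold change was -0.11 (SE 0.12, 95% interval -0.39 to 0.18), and 0.05 without the stimulated control replicate 7. That in Cd offspring was -0.21 (SE 0.12). Bub1, the kinase beside BubR1, had the lowest mean RPKM of the mitosis genes in stimulated cells, with 13 and 12 reads for control and 9 and 13 for Cd offspring.

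Top2a, on chromosome 11 from 98992947 to 99024199, the topoisomerase that untangles sister chromosomes, had 2.05 and 1.75 RPKM in unstimulated and 5.46 and 4.84 RPKM in stimulated control cells. The libraries of Cd offspring had 1.89 and 2.11, then 4.04 and 5.28 RPKM. For Top2a the log2 fold change was 1.39 (SE 0.16, adjusted p = 0.000179) and 1.17 (SE 0.16, adjusted p = 0.000465). The call in Cd offspring was lost without the stimulated Cd replicate 7, at 0.98, and with 1 RPKM added, at 0.91. Birc5, Cenpe and Kif11, of the chromosome passengers, the kinetochore and the spindle, ranged from 0.106 to 0.875 RPKM over all libraries. Kif11 had a log2 fold change of 0.82 (SE 0.28, adjusted p = 0.0329) in control and 0.48 in Cd offspring.

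Mki67, on chromosome 7 from 135689784 to 135716450, which encodes the proliferation marker Ki-67, moved the other way. It had 0.949 and 0.731 RPKM in unstimulated and 0.409 and 0.362 RPKM in stimulated control cells, and in Cd offspring 0.828 and 1.09, then 0.307 and 0.561 RPKM. Every stimulated library was under every unstimulated library. Libraries of all genes tested behave so in 37.2% of cases in control and 38.4% in Cd offspring. The log2 fold change was -0.94 (SE 0.31, adjusted p = 0.0304) and -1.02 (SE 0.31, adjusted p = 0.0222), short of the threshold. On the recovered reads, 172 and 120 against 64 and 71 in control cells, limma voom did call it lower, at -1.13 (adjusted p = 0.00294) and -1.17 (adjusted p = 0.000676), with 7.35% and 7.87% of all genes called lower.

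The response of a gene in control offspring and in Cd offspring, which share no library, followed the same order of genes. Across the 24 replication genes the log2 fold changes had Pearson's r = 0.98, and across the 16 mitosis genes r = 0.84, as a description of genes that share the same 8 libraries. No such value over all genes tested is given here, so the shared order is not read as particular to these lists. Called in both were 19 members, and Rfc3, Rrm1 and Rrm2 in control offspring only, each with a positive log2 fold change of 0.78 to 0.96 in Cd offspring. The control calls of Rrm1 and Rrm2 did not hold in every setting. The difference in response was tested directly, and 0 of 33 tested members passed, with 0.357% of all genes tested called (0.301% higher and 0.0555% lower in Cd offspring). Rfc3 (-0.33, unadjusted p = 0.0430) and Bub1b (0.56, unadjusted p = 0.0346, adjusted p = 0.433) had an unadjusted p under 0.05. Limma voom on the recovered reads also called 0 members, with 0.881% of all genes.

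Of the 40 members, 31 had a smaller log2 fold change in Cd than in control offspring, where 52.9% of all genes tested did. The median difference was -0.13 for replication and -0.18 for mitosis, and -0.01 over all genes tested. These values lean on single libraries: without the stimulated control replicate 6 the replication median was -0.01, without replicate 7 it was -0.25, and the mitosis median was -0.06 without the stimulated Cd replicate 6 and -0.38 without replicate 7. The stimulated control replicate 6 had the higher value of its group for 22 of 24 replication genes, and the stimulated Cd replicate 6 for only 2 of 16 mitosis genes.

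In unstimulated cells, 0 of 33 tested members differed between Cd and control offspring, with 0.896% of all genes tested called (0.135% higher and 0.762% lower). Bub1b came nearest, with 0.407 and 0.478 RPKM (29 and 36 reads) in Cd and 0.803 and 0.886 RPKM (53 and 53 reads) in control offspring. The Cd libraries were both the lower, and the log2 fold change was -0.80 (SE 0.15, unadjusted p = 0.00106, adjusted p = 0.0819). It ranged from -0.90 to -0.71 when single libraries were left out, and voom gave -0.92 (adjusted p = 0.0898). Prim1 also had an unadjusted p under 0.05, at 0.0401 with a log2 fold change of 0.19, and limma voom on the recovered reads called 0 members, with 1.67% of all genes. The 95% interval lay within 1.5-fold in both directions for 20 of 24 replication genes, but for only 3 of the 9 tested mitosis genes. The median log2 fold change was 0.04 for replication and 0.12 for mitosis, again 0.12 with Aurkb at its bound, and 0.01 over all genes tested. Without the unstimulated control replicate 7 the mitosis median was 0.014, and without replicate 6 it was 0.19. The replication median was 0.013 without the unstimulated control replicate 6 and 0.017 without the unstimulated Cd replicate 6. Libraries did not overlap for 9 of 40 members with Cd higher and for 4 of 40 with Cd lower, where 22.3% and 20% of all genes tested show this.

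In stimulated cells, 0 of 33 tested members differed between Cd and control offspring, none had an unadjusted p under 0.05, and of all genes tested 0% were called (414 with an unadjusted p under 0.05). Limma voom called 0 members and 0% of all genes. Plk1, the Polo kinase of mitotic entry, on chromosome 7 from 122159435 to 122169884, had the lowest unadjusted p, 0.133. It had 0.826 and 0.908 RPKM (40 and 51 reads) in Cd and 1.17 and 1.28 RPKM (40 and 55 reads) in control offspring, a log2 fold change of -0.46 (SE 0.27, 95% interval -1.09 to 0.18, adjusted p = 1). Its unstimulated libraries had 0.959 and 0.808 RPKM in control and 1.05 and 0.597 RPKM in Cd offspring. The log2 fold change was below 0 for 21 of 24 replication and 12 of 16 mitosis genes, where 54.1% of all genes tested were below 0. The medians were small, -0.09 and -0.14, and the replication median was 0.01 without the stimulated control replicate 6, while the mitosis median was 0.02 without the stimulated Cd replicate 6. For 18 of 24 replication genes the 95% interval lay within 1.5-fold, but for only 3 of the 9 tested mitosis genes. Libraries did not overlap for 1 of 40 members with Cd higher and 11 of 40 with Cd lower, where 16% and 20.6% of all genes tested show this.

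**Figure D5:**
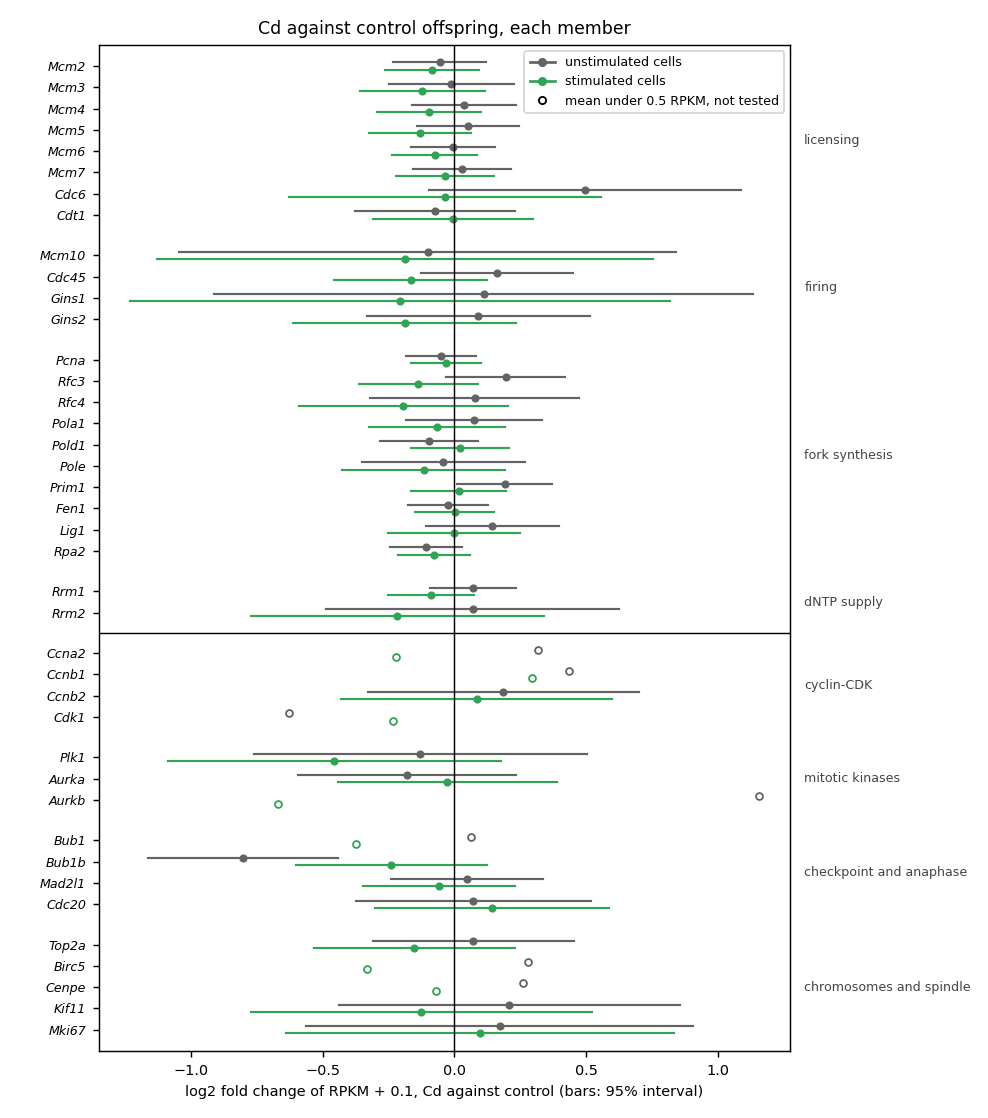
Log2 fold change of RPKM + 0.1 in Cd against control offspring for each member, in unstimulated (grey) and stimulated cells (green), with 95% intervals for tested members and open circles without an interval for those under 0.5 RPKM. The values of replication genes gather at 0, with those in stimulated cells slightly to the left (median -0.09). Bub1b in unstimulated cells (-0.80) is the tested member furthest from 0, and no member was called.

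Genes of the same pathways outside the 40 are set beside them here. Over all genes tested, 11.5% rose and 7.17% fell in control offspring, and 11.4% and 7.24% in Cd offspring. Of 32 other replication genes, all tested, 11 rose and 0 fell in control offspring, with a median log2 fold change of 0.58, and 10 rose and 0 fell in Cd offspring. The largest changes were in Uhrf1 (3.60), which keeps DNA methylation through replication, Chaf1a (2.87), which lays histones on new DNA, and Tk1 (2.15), the thymidine kinase of S phase. The smallest were in Rpa1 (-0.45), Gins3 (-0.20) and Dbf4 (-0.02). Of 30 other mitosis genes, 17 were tested, 3 rose and 2 fell in control offspring, and the median was 0.30. Those that rose were Ccnf (2.04), Ckap2 (1.89) and Cdca8 (1.21), and Kif23 (-1.56) and Cenpa (-1.20), the histone variant of centromeres, fell. Ube2c had a log2 fold change of -1.16 (adjusted p = 0.0871). In Cd offspring 2 rose and 2 fell. With 17 genes tested, these counts lie near the shares over all genes and are not read as a result about mitosis genes.

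Of 18 genes that control entry into S phase, 16 were tested, and 4 rose and 1 fell in control offspring. Over all genes tested 11.5% rose and 7.17% fell. Cdkn1a, the CDK inhibitor p21, went from 0.488 to 20.1 RPKM (log2 fold change 5.10, adjusted p = 3.05e-06). With 0.452 RPKM in unstimulated cells of Cd offspring, it too passed the filter only through stimulated libraries, so its test is no support for a rise. Cdkn1a is counted among the 4 that rose in control and the 4 that rose in Cd offspring. How many of the other replication and other mitosis genes passed the filter this way is not given here. E2f3 (2.43) and Tfdp1 (1.93), which form E2F dimers, and E2f1 (1.47) rose, and E2f2 (-1.15) fell. Rbl2 (-0.92) and Cdkn1b (-0.85), which hold cells at rest, were lower by less than 2-fold. In Cd offspring 4 rose and 0 fell, where 11.4% and 7.24% of all genes tested did.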

How the data were processed

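The authors used Subread for alignment (mouse build mm10) and featureCounts, with RefSeq transcripts, for counting. Versions, strand setting and treatment of reads with several alignments are not given in the sources used here. The table the authors deposited holds log2(RPKM + 1) + 0.0001 per gene and library, a scale read from its values, and the log2 values were turned back into RPKM. Low RPKM values move in steps of 1 read, which gave back the whole reads, and the total of each library, for 17793 of 17794 genes above 0 in at least 2 libraries. The totals set the precision of low genes.

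Groups came from the sample titles. Values of log2(RPKM + 0.1) were fitted for 12605 genes with a mean of at least 0.5 RPKM with a mean for each of 4 groups, by limma 3.58.1 in R 4.3.3 (empirical Bayes with trend), and Benjamini-Hochberg adjustment over all genes tested. EdgeR, which the study used on counts, was not used here. The main fit used the deposited values, which are normalized, and limma voom on the recovered reads served as an alternative. The fit was tested on simulated data with known changes. An exact permutation test of 2 against 2 libraries cannot give a p under 0.333. The 40 members, their roles and the lists beside them were chosen with earlier results of these data known. Values in every library are given for the member with the largest and the smallest change on stimulation in each role, for the member with the lowest p in each Cd comparison, and for a few others chosen after their values were seen (Mcm6, Mcm4, Cdc6, Cdc20, Mcm10). Alternatives were other pseudocounts, filters and scalings, only the libraries of a comparison, no trend, a replicate block, each library left out, and voom on the recovered reads. Promoter sequences and coordinates are from RefSeq (GRCm38.p6, the build of mm10), where 40 of 40 members matched. Reads of 9 members whose spans overlap another coding gene (Mcm7, Cdc45, Gins2, Rfc4, Fen1, Lig1, Ccna2, Aurka and Cdc20) could not be told apart from that gene's without strand. Python 3.11.15, numpy 2.4.6, pandas 2.3.3 and matplotlib 3.10.9 were used.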

Additional observations from a re-analysis of the deposited data

How the results depend on the processing

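Calls of the 33 tested members were stable in most settings. On stimulation 16 to 19 replication genes were called in control and 14 to 16 in Cd offspring. Of the mitosis genes 2 to 4 were called in both, and 0 members were called in any Cd comparison. The count of 4 was reached only without a filter, through Aurkb in control and Cdk1 in Cd offspring, which are not among the 33. Limma voom called 1 mitosis gene lower, Mki67, in each kind of offspring. The median log2 fold change of the replication genes on stimulation was 1.17, 1.24, 1.26 and 1.22 in control offspring with 1 or 0.5 RPKM added, median-of-ratios scaling and quantile normalization, and 1.26 to 1.42 with single libraries left out. In Cd offspring it was 1.08 with 1 RPKM added and 1.11 with quantile normalization. The mitosis median was 0.28, 0.42 and 1.14 for control offspring, then 0.17, 0.24 and 0.60 for Cd offspring, with 1 or 0.5 RPKM added and with voom, and with single libraries left out 0.79 to 0.92 and 0.29 to 0.55. For Cd against control in unstimulated cells, leaving out libraries gave medians of 0.013 to 0.045 for replication and 0.014 to 0.19 for mitosis, in stimulated cells medians of -0.17 to 0.0071 for replication and -0.30 to 0.019 for mitosis, and for the difference in response -0.25 to -0.013 and -0.38 to -0.063. The log2 distance between the lists, in the order unstimulated and stimulated control, then Cd, was 3.19, 3.81, 3.15 and 3.87 as a difference of means over members and 2.59, 3.55, 2.73 and 3.58 with 1 RPKM added, and ranged over single libraries from 3.68 to 3.77, 4.51 to 4.60, 3.90 to 4.05 and 4.52 to 4.80. Pcna turned to -0.068 and -0.050 under median-of-ratios scaling and quantile normalization, and Mad2l1 to 0.046 without the stimulated control replicate 7 (-0.26 without replicate 6). The cause was not tested. The deviations of same-numbered libraries from their group means had correlations of 0.06, 0.01, 0.01 and -0.04 in the 4 pairs of groups compared. They were -0.11 (unstimulated control with stimulated Cd) and 0.0018 (stimulated control with unstimulated Cd) in those not compared. With a single difference per group, these values cannot show whether libraries of the same number share an animal. The labels do not say so either. In its qPCR the paper compared stimulated with unstimulated samples by paired tests. The main fit did not pair samples, and fits with a block are given next. With a replicate block, 19 and 16 replication and 3 and 3 mitosis genes were called, and within exposure 18 and 16 replication genes. With a library left out the spread was pooled, and the lone library was assumed to vary like the others. Low read numbers limit the mitosis genes, 7 of which were not tested.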
